A study of Mus musculus with 16 samples.

Results

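Intended loss of Daxx alone was examined in mouse pancreas by setting 4 DC libraries against 4 WT libraries, chosen by their titles, out of 16 libraries in all. DC mice carried Daxxfl/flPdx1-CreTg, that is, floxed alleles of Daxx with a transgene that expresses Cre recombinase from the Pdx1 promoter, and WT mice were wild type. Beside them stood 4 DMC libraries, in which floxed alleles of both Daxx and Men1 were combined with Pdx1-CreTg, and 4 MC libraries from Men1fl/flPdx1-CreTg mice. All animals, WT included, had been given caerulein, which mimics cholecystokinin and injures acinar cells by overstimulation, so every group is injured tissue, and no strain is named in the labels. The mice were 6 to 10 weeks old, each dose was 50 ug/kg in 4 hourly injections on 3 days a week for 3 weeks, and whole pancreas was taken 5 days after the last dose. Total RNA was sequenced, and the values are gene counts divided by the authors' size factor for each library, called normalized counts here. Reads recovered from the 8 DC and WT libraries came to 14117277 to 23728309 per library. Of 15156 genes listed, 14220 had at least 10 normalized counts in at least 4 of the 16 libraries and were tested.

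Daxx is a histone chaperone that deposits the variant H3.3 together with Atrx, at telomeres, pericentromeric repeats and silenced genes, and it binds PML, p53 and SUMO-modified proteins. Mutations of DAXX, ATRX and MEN1 are recurrent in human pancreatic neuroendocrine tumours, which is the setting in which the pair of floxed genes is usually studied. Pdx1-Cre acts in the pancreatic epithelium, in acinar, ductal and islet lineages, while fibroblasts, vessels, leukocytes and mesothelium of the same tissue keep their alleles. WT mice carried no Cre by their label, so the transgene and the floxed alleles cannot be told apart in DC against WT. In DMC against MC, both groups carry Cre and floxed Men1, and only the floxed Daxx alleles differ. In whole tissue, fewer cells of a type and less RNA per cell cannot be told apart.

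Libraries stood apart in ways that the genotypes do not name. The mean log2 level of lymphoid markers was 4.13 to 6.52 in DC, against 7.91 and 8.62 in WT replicates 2 and 3 and 3.78 and 5.81 in the other WT libraries. Within DC, replicate 1 had the most fibroblast, mesothelial and endothelial signal and the least from acinar enzymes. Y-linked genes were high in 1 of 4 DC libraries and 2 of 4 WT libraries. The 10 most abundant genes took 33.5% to 45.0% of reads in DC libraries and 42.6% to 51.8% in WT libraries. Acinar markers, which define the tissue, had the largest summed level of the marker sets in each of the 8 libraries.

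The test was limma's on log2(normalized count + 1), with all 16 libraries in 1 fit and Benjamini-Hochberg adjustment over all 14220 genes, called at an adjusted p under 0.05. It called 3 genes higher in DC, which is 0.0211% of those tested, and 0 lower. At an unadjusted p under 0.05 the counts were 1062 higher (7.47%) and 603 lower (4.24%). By edgeR on the recovered reads the calls were also 3 higher and 0 lower, and by DESeq2 224 higher and 57 lower. The 3 genes were Bglap3, Ajuba and Obp2b. All 3 were among the calls of both count tests as well. Leaving out a library moved the limma count: it was 1, 0 and 7 when DC replicates 1, 2 and 4 were left out in turn, and 5, 19 and 0 when WT replicates 1, 3 and 4 were.

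The promoter windows of the called genes are shown so that the starts of the genes that rose can be compared, and that of Obp2a because it is nearly the same as that of Obp2b. Each window runs from 250 bases before to 50 after a RefSeq start (GRCm38.p6), read 5′ to 3′ on the gene's strand. Capitals mark the letters TATAA, the core of a classic promoter box, and CATTCC, the core bound by TEAD factors, searched on both strands. The first lies at chr2:25736757-25737056 on the plus strand, its near copy at chr2:25699824-25700123 on the plus strand, the Bglap3 window (the first of 3 listed starts) at chr3:88372692-88372991 on the minus strand, and the Ajuba window at chr14:54577612-54577911 on the minus strand.
Obp2b: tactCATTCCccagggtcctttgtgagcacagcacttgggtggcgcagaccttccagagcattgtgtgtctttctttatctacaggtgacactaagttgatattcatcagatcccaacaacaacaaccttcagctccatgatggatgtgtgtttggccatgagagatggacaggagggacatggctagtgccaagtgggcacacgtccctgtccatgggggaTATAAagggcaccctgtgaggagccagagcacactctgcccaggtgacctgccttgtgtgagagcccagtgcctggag
Obp2a: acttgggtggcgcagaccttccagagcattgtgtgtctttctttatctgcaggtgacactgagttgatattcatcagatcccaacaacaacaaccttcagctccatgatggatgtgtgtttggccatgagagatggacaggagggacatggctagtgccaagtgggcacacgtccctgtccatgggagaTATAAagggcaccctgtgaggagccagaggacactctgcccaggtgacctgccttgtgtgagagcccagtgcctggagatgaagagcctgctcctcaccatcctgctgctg
Bglap3: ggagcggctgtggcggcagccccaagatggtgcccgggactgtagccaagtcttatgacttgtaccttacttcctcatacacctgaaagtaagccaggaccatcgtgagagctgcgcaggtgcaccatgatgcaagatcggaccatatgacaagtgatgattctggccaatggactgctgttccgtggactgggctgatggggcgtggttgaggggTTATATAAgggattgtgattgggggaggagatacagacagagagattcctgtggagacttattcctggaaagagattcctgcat
Ajuba: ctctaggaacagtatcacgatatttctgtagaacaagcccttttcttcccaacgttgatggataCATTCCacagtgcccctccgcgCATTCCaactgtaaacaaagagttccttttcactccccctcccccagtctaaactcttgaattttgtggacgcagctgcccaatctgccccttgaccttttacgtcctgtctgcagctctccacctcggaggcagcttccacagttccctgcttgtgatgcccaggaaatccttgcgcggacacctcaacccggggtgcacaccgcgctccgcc

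Obp2b has a TATAA 28 bases before its start and 2 CpG dinucleotides. Bglap3 has one 31 bases before its start, in the run TTATATAA, where forward and reverse matches overlap, and 8 CpG. The windows of the other 2 listed Bglap3 starts hold no TATAA and 7 CpG each. Ajuba has no TATAA, holds CATTCC at 186 and 164 bases before its start, and has 13 CpG against a median of 7 over all windows. The Obp2b window also holds 1 CATTCC, at its far end. Over 32851 RefSeq promoter windows, 24.87% held TATAA, 14.66% held CATTCC and 7.15% held the E-box CACGTG, which is absent from all 4 windows shown. These matches are letters in a window, not evidence of a bound factor. The windows of Obp2b and its neighbour Obp2a were 98.5% identical over 267 aligned bases, with 263 equal.

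Bglap3 encodes a member of the osteocalcin family, small vitamin K-dependent proteins best known from bone matrix. It lies on chromosome 3 from 88368616 to 88372743 (minus strand, GRCm38, ENSMUSG00000074489.9). Bglap3 had 326, 731, 338 and 620 normalized counts in DC libraries 1 to 4, against 99.0, 53.3, 62.8 and 37.3 in WT libraries 1 to 4. Every DC library lay well above every WT library, with DC replicates 2 and 4 highest. The means were 504 ± 203 in DC and 63.1 ± 26.1 in WT (SD, n = 4 each), a log2 difference of 2.97 ± 0.39 (SE, limma adjusted p = 0.00993). An exact two-sided permutation test gave p = 0.0286, the smallest that 70 assignments allow, as it did for Ajuba and Obp2b. Any gene whose groups do not overlap gets this p, so it adds nothing to the calls. Over all genes tested, 3.72% did not overlap on the higher side and 1.77% on the lower. The limma adjusted p of Bglap3 was 0.0545 without DC replicate 2, 0.0630 without WT replicate 4 and 0.0673 in a fit of the DC and WT libraries alone.

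Of the rest of the osteocalcin list, Mgp, a matrix inhibitor of calcification, had 1322, 1206, 1199 and 960 normalized counts in DC and 695, 898, 735 and 932 in WT, which do not overlap (log2 difference 0.52, limma adjusted p = 0.474). Ggcx, the carboxylase that modifies these proteins, had a log2 difference of 0.26, Runx2, the osteoblast factor that drives bone osteocalcin, 0.20, and Vkorc1 -0.23. None of the 4 passed the test. Bglap and Bglap2, the bone osteocalcin genes, were not analysed here. Of 2276 distinct 50-base stretches in Bglap3 transcripts, 12.5% also occur in other genes, Bglap and Bglap2 among them, so part of its count is uncertain. Paqr6, whose end lies 0.075 kb from that of Bglap3 on the opposite strand, averaged 14.6 ± 8.33 in DC and 10.7 ± 5.10 in WT. No source used here says whether reads were counted by strand.

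Ajuba encodes a LIM domain scaffold that binds the LATS kinases of the Hippo pathway and also sits at cell junctions. It lies on chromosome 14 from 54567472 to 54577558 (minus strand, ENSMUSG00000022178.11). Ajuba had 331, 283, 262 and 298 normalized counts in DC, against 140, 113, 85.7 and 82.4 in WT. The groups were separated by a wide gap and the DC libraries lay close together. Means were 294 ± 29.1 in DC and 105 ± 26.8 in WT (SD, n = 4 each), a log2 difference of 1.5 ± 0.20 (SE, limma adjusted p = 0.00993). The ratio of means was 2.79-fold. Leaving out DC replicate 1 or 2 gave a limma adjusted p of 0.0631 or 0.0545, leaving out WT replicate 4 gave 0.0630, and fitting the DC and WT libraries alone gave 0.0918. Of 3348 stretches of 50 bases in its transcript, 1.82% occur elsewhere. Haus4, a subunit of the augmin complex on the same strand 12.9 kb away, had 169, 183, 96.9 and 266 in DC and 97.2, 124, 122 and 62.6 in WT (log2 difference 0.77, limma adjusted p = 0.321). Their ranges overlap.

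Obp2b encodes a lipocalin of the odorant binding family, secreted carriers of small hydrophobic molecules. It lies on chromosome 2 from 25737009 to 25740097 (plus strand, ENSMUSG00000079539.2). Obp2b had 280, 207, 175 and 135 normalized counts in DC, against 8.84, 9.04, 22.03 and 13.2 in WT. Every DC library lay far above every WT library. Means were 199 ± 61.1 in DC and 13.3 ± 6.17 in WT (SD, n = 4 each), a log2 difference of 3.85 ± 0.54 (SE, limma adjusted p = 0.0135) and a 15.03-fold ratio of means. The limma adjusted p was 0.112, 0.0789 and 0.0545 without DC replicates 1, 2 and 3 in turn, 0.0545 and 0.0664 without WT replicates 2 and 4 in turn, 0.113 with a pseudocount of 0.5 and 0.117 with the filter at 50. The reads behind it were 984 over the 4 DC libraries and 54 over the 4 WT libraries. Obp2a, whose promoter stands above, was not analysed here, and 11.9% of the 683 stretches of 50 bases in Obp2b also occur in Obp2a. Bmyc, the only tested gene within 100 kb, had a log2 difference of 0.73 (limma adjusted p = 0.518).

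Obp2b had the largest difference of 8 tested lipocalin genes, of which 7 were positive. Ambp, the precursor of alpha-1-microglobulin, had 793, 863, 791 and 714 in DC and 700, 391, 605 and 342 in WT, without overlap (log2 difference 0.69, limma adjusted p = 0.264). Lcn2, an iron-siderophore carrier of injured epithelium, had 159, 170, 105 and 109 in DC and 77.8, 138, 44.9 and 54.9 in WT (limma adjusted p = 0.327), and its groups overlap.

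Because the Y-linked level was uneven, the called genes were also set out among libraries with a low Y-linked level, 3 DC and 2 WT, with no test. Mean normalized counts there were 563 in DC and 50.1 in WT for Bglap3, 281 in DC and 84.0 in WT for Ajuba, and 173 in DC and 17.6 in WT for Obp2b. The log2 differences there were 3.44 for Bglap3, 1.73 for Ajuba and 3.24 for Obp2b. Among libraries with a high Y-linked level, 1 DC and 2 WT, they were 2.15, 1.39 and 4.82. Every DC library exceeds every WT library for these genes, so the direction in any subset was fixed beforehand, and only the sizes can be read. With the Y-linked level as a covariate limma called the same 3 genes.

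**Figure D1:**
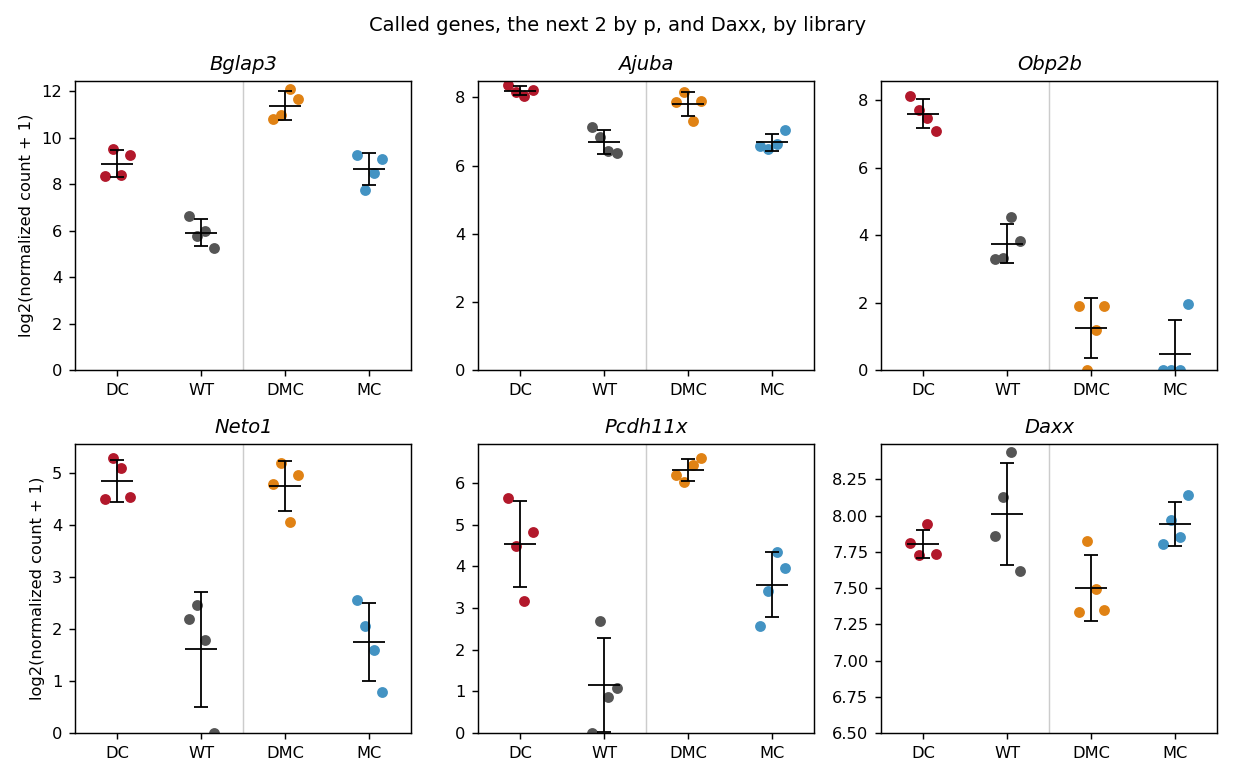
Each point is a library, on a log2(normalized count + 1) axis, in DC, WT, DMC and MC (4 each), with the mean and SD in black. DC and WT points of Bglap3, Ajuba, Obp2b, Neto1 and Pcdh11x do not overlap, those of Daxx do, and Obp2b is near 0 in DMC and MC.

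Daxx itself, on chromosome 17 from 33909414 to 33915590, did not pass the test. Normalized counts were 224, 212, 245 and 212 in DC, against 232, 278, 346 and 195 in WT. The DC libraries all lie inside the WT range. DC stood at 84.9% of WT (log2 difference -0.20 ± 0.16 SE, limma adjusted p = 0.683, exact permutation p = 0.314, two-sided). Without WT replicates 2 and 3 the log2 difference turned to 0.07. In DMC against MC, Daxx had 160, 225, 179 and 162 in DMC against 223, 249, 230 and 281 in MC, 73.8% of MC (exact permutation p = 0.0571, two-sided). Counts summed along Daxx cannot tell whether floxed exons are gone, and cells without Cre add to them.

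The partners of Daxx differed little from WT and in both directions. Of 26 tested genes of the Daxx, Atrx and H3.3 chaperone list, 13 were positive, 0 were called and the median log2 difference was 0.00, against -0.02 over all genes. Atrx, the remodeller that acts with Daxx, averaged a log2 difference of 0.08, and H3f3a and H3f3b, which encode H3.3, -0.14 and -0.06. Hira, the chaperone of the other H3.3 pathway, was 0.34 (limma adjusted p = 0.550). Trim28, the KAP1 corepressor, was the single member of 26 without overlap, at 1326, 1351, 1242 and 1353 in DC and 1694, 1567, 1465 and 1464 in WT (limma adjusted p = 0.268). Over all genes 1.77% did not overlap on the lower side and 3.72% on the higher, so 1 of 26 is near that share. Pml and Asf1a had log2 differences of -0.35 and -0.40 (limma adjusted p = 0.432 and 0.357). Because a floxed allele carries a stretch of its own chromosome, genes near Daxx were counted. Within 1 Mb of Daxx, 36 of 72 tested genes were positive, 0 were called and the median was 0.00. Within 10 Mb, 152 of 328 were positive, with 0 called.

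Men1 was not floxed in DC, and its level there was 397, 481, 508 and 541 normalized counts in DC against 331, 345, 459 and 336 in WT (log2 difference 0.39, limma unadjusted p = 0.00904, adjusted p = 0.264). The ranges overlap. Men1 was named after its values were seen, since menin is the other gene of the study. Where it was floxed, Men1 averaged 132 ± 13.3 in MC and 168 ± 10.6 in DMC, against 368 ± 61.3 in WT (SD, n = 4 each). The log2 differences from WT were -1.47 in MC and -1.12 in DMC. Why counts of floxed Men1 fell further than those of floxed Daxx was not tested.

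Next by p, and short of the threshold, came a pair of neuronal genes at low counts. Neto1, an auxiliary subunit of glutamate receptors, had 21.4, 38.2, 33.0 and 22.01 normalized counts in DC and 3.54, 4.52, 2.45 and 0 in WT (log2 difference 3.24 ± 0.54 SE, limma adjusted p = 0.0666). Pcdh11x, an X-linked protocadherin, had 49.0, 21.6, 7.98 and 27.5 in DC and 0, 5.42, 0.816 and 1.10 in WT (log2 difference 3.38 ± 0.58 SE, limma adjusted p = 0.0793). In both, the groups do not overlap. They rest on few reads, 130 in DC and 10 in WT for Neto1, and 138 in DC and 8 in WT for Pcdh11x. Neto1 passed with a pseudocount of 4 (limma adjusted p = 0.00966), with no filter (0.0474), without WT replicate 3 (0.0479) and without MC replicate 4 (0.0380). Pcdh11x passed without WT replicate 2 (limma adjusted p = 0.0325) and without DC replicate 3 (0.0351).

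Among genes with a mean of at least 50 and no overlap between the groups, the next 10 by p on the higher side all had an adjusted p of 0.115 by limma. They included Ehbp1, an adaptor of endocytic trafficking, at 618, 494, 557 and 538 in DC and 357, 367, 354 and 426 in WT. Sorbs3 (vinexin), a focal adhesion adaptor, had 475, 341, 442 and 425 in DC and 265, 246, 228 and 301 in WT. Grk5, a receptor kinase, had 284, 199, 269 and 232 in DC and 104, 118, 135 and 74.7 in WT, a log2 difference of 1.20 ± 0.23 (SE). Each pair of groups is separate. Sult5a1, a sulfotransferase, averaged 100.1 ± 27.7 in DC and 38.1 ± 12.6 in WT, and Cdk14, a cyclin-dependent kinase, 473 ± 33.7 in DC and 262 ± 78.5 in WT (SD, n = 4 each). Without WT replicate 3 the limma adjusted p was 0.0479 for Grk5 and 0.0141 for Cdk14, and without WT replicate 1 it was 0.0458 for Sult5a1.

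The other 5 were Itgbl1, Loxl2, Fgfr2, Pid1 and Scara3. Itgbl1, an integrin-like secreted protein, had 508, 251, 238 and 185 in DC and 129, 114, 78.3 and 94.4 in WT (log2 difference 1.41). Loxl2, which crosslinks collagen, had 200, 175, 164 and 164 in DC and 91.9, 90.4, 115 and 113 in WT (0.77), and Fgfr2, a fibroblast growth factor receptor, 535, 427, 510 and 398 in DC and 286, 235, 266 and 300 in WT (0.78). Pid1, a phosphotyrosine interaction domain adaptor, and Scara3, a scavenger receptor family protein, had log2 differences of 0.96 and 0.93. All 5 were separate between the groups, and for 4 of them, all but Scara3, the top value came from DC replicate 1. Fgfr2 passed without MC replicate 4 (limma adjusted p = 0.0380), and Scara3 without DC replicate 4 (limma adjusted p = 0.0199).

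On the lower side the 10 genes chosen in the same way had limma adjusted p of 0.115 to 0.138. The largest difference was that of Arntl, the clock activator BMAL1, at 185, 116, 112 and 89.1 in DC and 407, 373, 205 and 592 in WT (log2 difference -1.60 ± 0.38 SE). Gapdh, the glycolytic enzyme often used as a reference transcript, had 763, 645, 619 and 551 in DC and 1147, 1497, 770 and 1092 in WT (log2 difference -0.77). The lowest WT library of Gapdh exceeded the highest DC library only narrowly, and without that library, WT replicate 3, Gapdh passed the test (log2 difference -0.94, limma adjusted p = 0.0378). Tmem131l averaged 732 ± 118 in DC and 1216 ± 193 in WT. Gramd3, Actr2 (a subunit of the Arp2/3 actin nucleator), Plcl2, Cnp, Ubb (polyubiquitin), Rassf3 and Limd1 had smaller differences, of -0.55 to -0.36, each with no overlap. None of the 10 passed the test with all libraries in the fit.

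**Figure D2:**
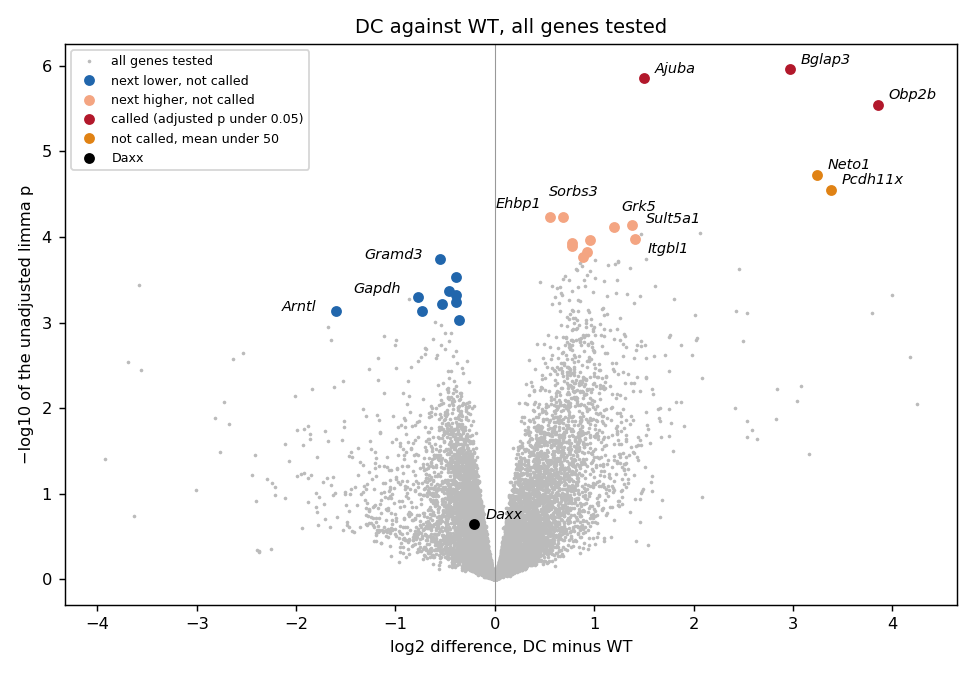
Each point is 1 of 14220 tested genes, with the log2 difference DC minus WT across and −log10 of the unadjusted limma p upward. The called genes Bglap3, Ajuba and Obp2b lie at the top right. Orange and pink mark named genes short of the threshold on the higher side. Blue marks those chosen on the lower side, Arntl and Gapdh among them.

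Ajuba belongs to the Hippo pathway, in which the kinases MST and LATS restrain the coactivators YAP and TAZ, which act with TEAD factors on genes such as Ctgf. Of 33 tested Hippo genes 23 were positive, 1 was called, 8 did not overlap on the higher side and 1 on the lower side. The 1 called was Ajuba itself, which is also among those 8, so these counts include the gene already named. Over all genes tested 0.0211% were called higher. Of all genes, 3.72% did not overlap on the higher side and 1.77% on the lower, and 47.3% were positive. The list median was 0.15. Ctgf, a secreted matricellular target of YAP, had 1083, 601, 415 and 348 normalized counts in DC and 316, 233, 191 and 163 in WT (log2 difference 1.34, limma adjusted p = 0.117), without overlap. The second of the family of LIM scaffolds, Limd1, lay the other way, at 902, 807, 920 and 872 in DC and 1193, 1049, 1080 and 1186 in WT (log2 difference -0.36, limma adjusted p = 0.138). The third, Wtip, had 127, 72.2, 77.5 and 62.7 in DC and 61.9, 50.6, 51.4 and 53.8 in WT (limma adjusted p = 0.341). So of 3 closely related LIM proteins, Ajuba rose, and Limd1 and Wtip differed in opposite directions without passing the test.

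The kinases and coactivators did not share a direction or size, and none was called. Yap1 had a log2 difference of 0.01 and its paralog Wwtr1 (TAZ) 0.43, and Lats1 was at -0.13 and Lats2 at 0.45, with no overlap between the groups for Wwtr1 and Lats2. Nf2, the upstream tumour suppressor merlin, was at 0.00. The atypical cadherin Fat4 and the angiomotins Amotl2 and Amotl1, chosen after their values were seen because their libraries do not overlap, were at 0.94, 0.55 and 0.22. Cyr61, another YAP target, was at 0.74 with overlap, and was also chosen after its values were seen, as were the kinases, the coactivators and Nf2. The sum of 6 fibroblast and stellate markers spanned 28156 to 56313 normalized counts in DC libraries and 19223 to 22746 in WT libraries. Its part in the Hippo and matrix values was not tested.

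The collagen and matrix list lay higher almost throughout. These genes build interstitial fibrils and the enzymes that crosslink or digest them, and activated stellate cells are their main source in pancreatitis. Of 39 tested members 38 were positive (47.3% over all genes), 16 did not overlap on the higher side (3.72% over all genes), 0 were called, and the median log2 difference was 0.75. Col5a1, which nucleates fibrils, had 1892, 1370, 2105 and 1411 normalized counts in DC and 826, 862, 871 and 1087 in WT (limma adjusted p = 0.115). Mmp2, a gelatinase, had 2173, 1376, 1519 and 1048 in DC and 833, 773, 730 and 762 in WT (limma adjusted p = 0.115). The groups are separate in both. Tnc was the single member with a negative difference (-0.21), and the basement membrane chains Col4a1 and Col4a2 were at 0.13 and 0.26; all 3 were picked after their values were seen. At an unadjusted p under 0.05, 32 of 39 lay higher and 0 lower, where 7.47% of all genes lay higher and 4.24% lower.

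Among fibroblast, stellate and smooth muscle genes 24 of 27 were positive, 3 did not overlap on the higher side, against 3.72% of all genes, and 0 were called, and their median was 0.43. Gas1, a Hedgehog coreceptor, had 622, 297, 418 and 298 in DC and 180, 191, 157 and 260 in WT (log2 difference 1.01, limma adjusted p = 0.115). Mfap5, a microfibril protein, and Pdgfra, the growth factor receptor of mesenchymal cells, had log2 differences of 0.84 and 0.62. Has2, a hyaluronan synthase picked after its value was seen, was at -0.92 (limma adjusted p = 0.370).

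Of the 12 tested genes of mesothelium 11 were positive (median 0.61), as were 18 of 20 endothelial ones (median 0.39), and 0 were called in either list. On the higher side 3 mesothelial genes and 1 endothelial gene did not overlap. Over all genes 47.3% were positive, 3.72% did not overlap on that side and 0.0211% were called. Muc16, a mucin of serosal cells, had 1107, 226, 471 and 207 in DC and 179, 162, 141 and 115 in WT (log2 difference 1.42, limma adjusted p = 0.157). Its level in DC replicate 1 stood far above the rest. Leaving out DC replicate 1 gave medians of 0.23 for mesothelial, 0.24 for endothelial and 0.26 for fibroblast genes, and leaving out DC replicate 4 gave 0.95 for mesothelial and 0.66 for fibroblast genes. The collagen median was 0.57 to 0.89 over 30 alternatives.

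Acinar genes lay lower. Of 29 tested digestive enzymes 4 were positive (47.3% over all genes), 0 were called (0.0211% over all genes) and the median was -0.58. Sycn, a zymogen granule protein, had 15152, 41190, 29724 and 45043 normalized counts in DC and 88994, 33157, 42245 and 77036 in WT (log2 difference -0.88, limma adjusted p = 0.422), and its groups overlap. Rnase1 and Pnliprp2, a secreted ribonuclease and a lipase, had differences of -0.87 and -0.69. The lowest values were those of DC replicate 1 and the highest those of WT replicate 1. With quantile scaling the median of the enzymes was -0.05, and without WT replicates 2 and 3 it was -1.01. Of 18 acinar transcription factor and machinery genes 2 were positive, and their median was -0.38, or -0.17 when DC replicate 1 was left out. Reg3d and Reg3a, secreted proteins that acinar cells make in injury, were at -0.84 and -1.35 (limma adjusted p = 0.364 and 0.411), with WT replicate 3 as low as the DC libraries.

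Ductal and acinar-to-ductal genes did not shift together, with 10 of 22 positive and a median of -0.06. Within them Onecut2, a hepatic and pancreatic progenitor factor, had 498, 180, 161 and 117 normalized counts in DC and 47.7, 29.8, 113 and 10.98 in WT (log2 difference 2.43, limma adjusted p = 0.130). The groups were just separate, WT replicate 3 coming closest to DC, and without that library Onecut2 passed (log2 difference 2.96, limma adjusted p = 0.0479). Among islet hormone and endocrine genes 25 of 34 were positive (median 0.19), 0 were without overlap and 0 were called. Over all genes 47.3% were positive, 3.72% did not overlap on the higher side and 1.77% on the lower, and 0.0211% were called. So 0 called is near the share over all genes. Leaving out DC replicate 1 turned that median to -0.28, and leaving out WT replicate 3 turned it to -0.17. The sums of 6 islet markers spanned 12292 to 87790 normalized counts in DC libraries and 9735 to 45413 in WT libraries.

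**Figure D3:**
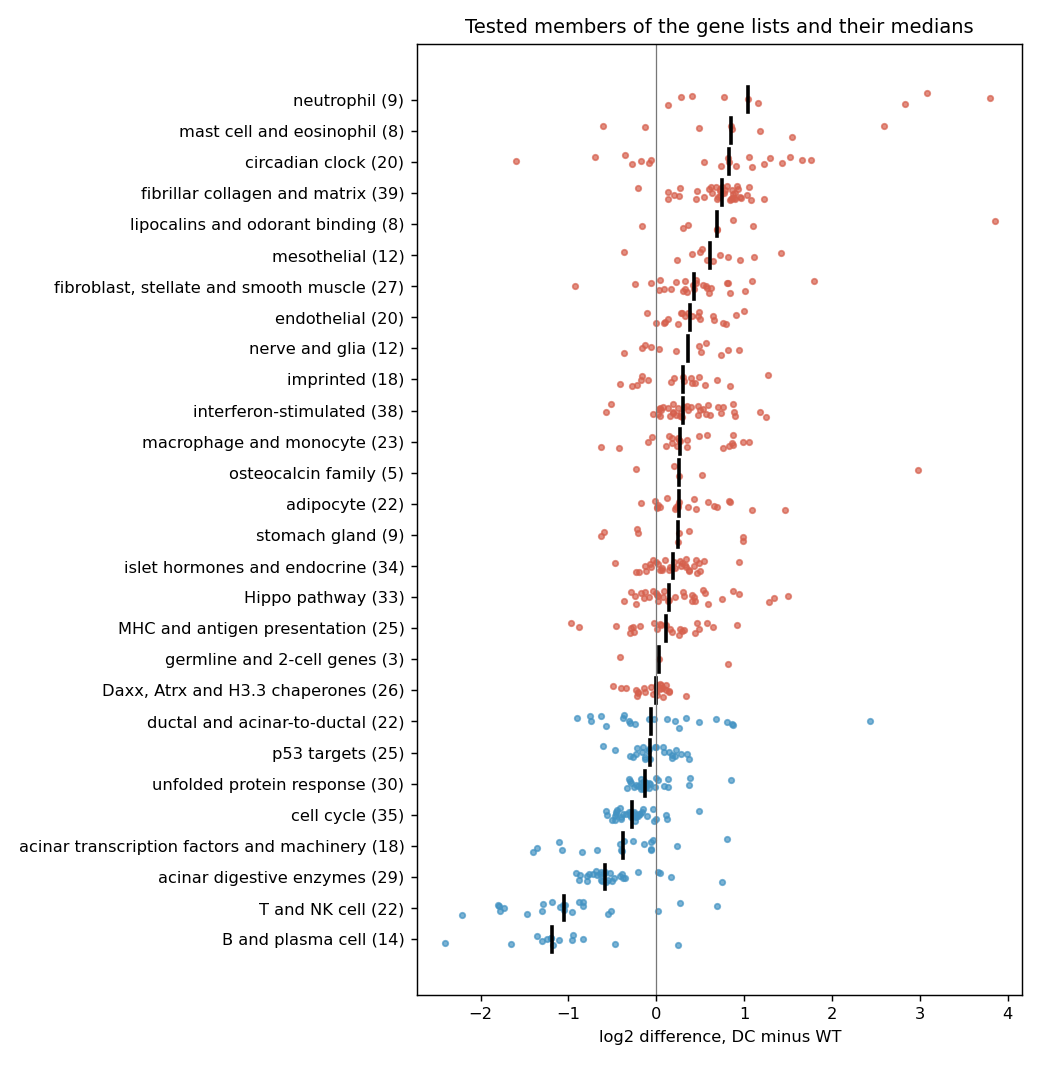
Each point is a tested member of a gene list, placed by its log2 difference DC minus WT, with the list median as a black bar and the number tested in parentheses. Neutrophil, mast cell, clock and collagen lists have the highest medians (1.04, 0.85, 0.83 and 0.75), and B and plasma cell and T and NK cell lists the lowest (-1.19 and -1.05).

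Clock genes differed in both directions. In the daily loop BMAL1, the product of Arntl, and CLOCK drive Per, Cry, Dbp, Tef and Hlf, and Arntl peaks opposite to Dbp. Of 20 tested members 13 were positive, 8 did not overlap on the higher side and 1 on the lower, 0 were called and the median was 0.83. Over all genes these shares were 47.3% positive, 3.72% without overlap on the higher side and 1.77% on the lower. Tef had 896, 857, 1204 and 1382 normalized counts in DC and 539, 337, 739 and 457 in WT (log2 difference 1.09, limma adjusted p = 0.130). Cry2 had 387, 301, 346 and 394 in DC and 214, 234, 206 and 158 in WT (log2 difference 0.82, limma adjusted p = 0.115). Both are without overlap, as is Arntl on the lower side. The other higher members without overlap, named after their values were seen, were Per3 (1.76), Dbp (1.52), Hlf (1.43), Per2 (1.22), Bhlhe40 (0.83) and Per1 (0.73). No source used here gives the hour of collection, so a difference of genotype and one of sampling time cannot be told apart.

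Leukocyte lists differed in direction. All 9 tested neutrophil genes were positive, with a median of 1.04 (0.65 without DC replicate 1) and 0 called. Over all genes 47.3% were positive and 0.0211% were called, which holds beside each list here. Ltf, lactoferrin of neutrophil granules, had 20.2, 326, 10.3 and 83.6 normalized counts in DC and 0, 5.42, 4.08 and 4.39 in WT (limma adjusted p = 0.130). S100a9, an alarmin of neutrophils, had 25.7, 655, 11.4 and 154 in DC and 3.54, 12.7, 6.53 and 13.2 in WT (limma adjusted p = 0.220). DC replicates 2 and 4 carry most of the signal in both genes. T and NK cell genes had 3 of 22 positive with a median of -1.05, and B and plasma cell genes 1 of 14 with -1.19, and 0 were called in either. Leaving out WT replicates 2 and 3 together turned the T and NK median to 0.47 and the B and plasma cell median to 0.53. Leaving out WT replicates 1, 2 and 3 in turn gave -2.09, -0.62 and -0.38 for T and NK genes and -2.02, -0.69 and -0.49 for B and plasma cell genes. Lck, a T cell kinase, had 42.8, 14.9, 125 and 16.5 in DC and 14.1, 340, 604 and 71.4 in WT. The 4 WT libraries span the whole range of the DC libraries. Of 8 mast cell and eosinophil genes 6 were positive and 0 called (median 0.85, or 0.56 when DC replicate 1 was left out). Of 23 macrophage and monocyte genes 19 were positive (median 0.27, or 0.08 when DC replicate 1 or WT replicate 1 was left out).

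Of 38 interferon-stimulated genes 35 were positive, and their median was 0.30. It was 1.15 when WT replicates 2 and 3 were left out together, and -0.09, 0.48, 0.75 and 0.11 when WT replicates 1, 2, 3 and 4 were left out in turn. Cmpk2, an interferon-induced nucleotide kinase, ran against the list at 146, 165, 115 and 157 in DC and 184, 188, 245 and 250 in WT (log2 difference -0.57, limma adjusted p = 0.220), without overlap. Bst2, tetherin, had 320, 374, 373 and 370 in DC and 65.4, 269, 571 and 133 in WT (limma adjusted p = 0.516), even in DC and scattered in WT. Of 35 cell cycle genes 3 were positive, and their median was -0.27, or 0.02 when WT replicates 2 and 3 were left out. Of 25 targets of p53, which Daxx is known to bind, 11 were positive (median -0.08), as were 7 of 30 unfolded protein response genes (median -0.13). Of these lists 0 members were called, where 0.0211% of all genes were called and 47.3% were positive.

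In mouse embryonic stem cells Daxx and Atrx deposit H3.3 at imprinted and silenced loci. Of 18 tested imprinted genes 12 were positive, 0 were called, 4 did not overlap on the higher side and 1 on the lower, and the median was 0.31 (0.17 without DC replicate 1). Over all genes 47.3% were positive, and 3.72% did not overlap on the higher side and 1.77% on the lower. Zim1, a zinc finger gene of the Peg3 cluster, had 267, 253, 254 and 155 in DC and 86.6, 102, 107 and 81.3 in WT (log2 difference 1.27, limma adjusted p = 0.351). Cdkn1c, a maternally expressed cell cycle inhibitor, had 335, 217, 170 and 245 in DC and 154, 91.3, 155 and 133 in WT (0.84, limma adjusted p = 0.217), and Grb10 was at 0.31. Of 22 germline and 2-cell genes 3 passed the filter on low values, with 0 called.

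**Figure D4:**
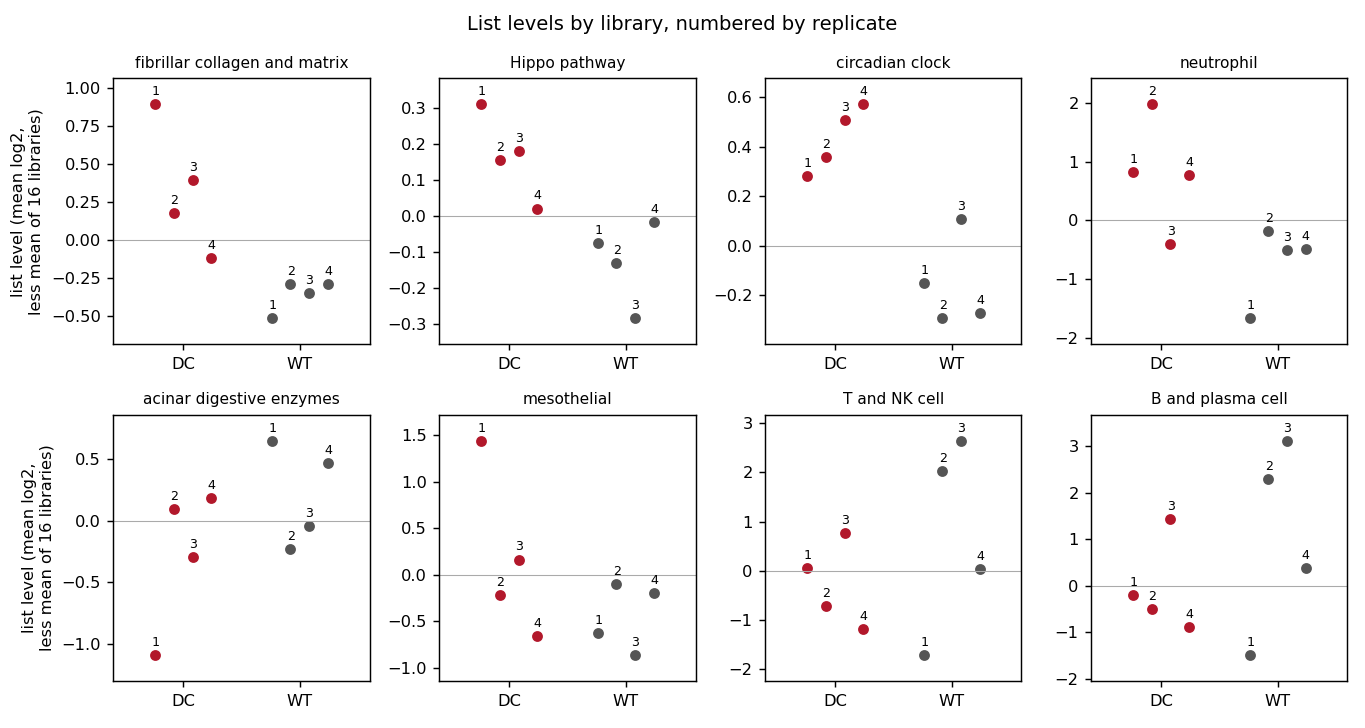
Each point is a DC or WT library, labelled with its replicate number, at the mean log2 level of a gene list less the mean of all 16 libraries. Collagen, Hippo and clock levels do not overlap between DC and WT, and T, NK and B cell levels are highest in WT replicates 2 and 3.

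Floxed Daxx was then read in DMC against MC, which shares no library with DC against WT, although both come from a fit with a common spread. There limma called 1 gene, 0.00703% of those tested, and it was Bglap3. Bglap3 had 1770, 2010, 4394 and 3289 normalized counts in DMC against 619, 214, 359 and 546 in MC. The log2 difference, DMC minus MC, was 2.73 ± 0.39 (SE, limma adjusted p = 0.0441), and it differed from that in DC against WT by -0.24 ± 0.55 (SE, limma adjusted p = 0.948). MC, where Daxx was not floxed, also lay above WT for Bglap3 (means 435 and 63.1). Its log2 difference there was 2.74, beside 2.97 for DC, so a higher Bglap3 was not particular to floxed Daxx. MC minus WT was -0.01 for Ajuba and -3.25 for Obp2b. The limma adjusted p of Bglap3 there was 0.0515 to 0.172 when any 1 MC or DMC library was left out, 0.0510 and 0.0700 without DC replicates 2 and 3 in turn and 0.0676 without WT replicate 3. It was 0.0568 with robust limma and 0.0957 with a replicate block. Ajuba had 231, 285, 158 and 238 in DMC against 94.4, 88.9, 98.0 and 131 in MC (log2 difference 1.12 ± 0.20 SE, limma adjusted p = 0.0580). Neither gene overlaps between those groups.

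Obp2b was at or near 0 there. It had 2.73, 0, 1.31 and 2.74 in DMC against 0, 0, 0 and 2.90 in MC, or 7 reads in DMC and 4 in MC. The fitted difference of the log2 differences was -3.09 ± 0.77 (SE, limma unadjusted p = 0.00102, adjusted p = 0.335), so the difference between the settings did not pass. With a pseudocount of 4 it passed (-3.29, limma adjusted p = 0.0281). Over all genes 0 were called for that difference, and 3.52% had an unadjusted p under 0.05 on the higher side and 4.61% on the lower. Of these 8 libraries 7 held 3 reads of Obp2b or fewer and 4 held 0, where 3 reads are worth 2.03 to 4.76 normalized counts in a library.

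Neto1 and Pcdh11x had positive differences in both settings, none of them past the threshold. Their DMC minus MC log2 differences were 2.99 (limma adjusted p = 0.0580) and 2.75 (limma adjusted p = 0.139). MC minus WT was 0.14 for Neto1 and 2.41 for Pcdh11x, so Pcdh11x was also higher in MC, without floxed Daxx. Neto1 had 126 reads in DMC and 9 in MC, and Pcdh11x 344 in DMC and 49 in MC. Among the other genes named for DC against WT, Sult5a1 and Grk5 were at 1.05 and 0.81. Cry2 was at 0.54 and Arntl at -0.70, without passing the test. Of the genes next by p on the higher side in DC, Itgbl1 stood at -0.68, Fgfr2 at -0.27, Pid1 at 0.01, Loxl2 at 0.00 and Scara3 at 0.04. Ehbp1, Cdk14 and Sorbs3 were at 0.13, 0.15 and 0.20. MC minus WT was 1.30 for Itgbl1, 0.31 for Fgfr2, 0.62 for Pid1, 0.42 for Loxl2 and 0.50 for Scara3. So these genes were on average also higher in MC, without floxed Daxx. It was 0.57 for Sult5a1, 0.12 for Grk5, 0.23 for Ehbp1, -0.05 for Cdk14 and 0.12 for Sorbs3. On the lower side Gapdh turned to 0.15 in DMC against MC. There the named genes other than Gapdh and Arntl were at -0.22 (Tmem131l) to -0.05 (Cnp). Haus4, the neighbour of Ajuba, had 152, 181, 116 and 161 normalized counts in DMC against 62.5, 34.9, 55.6 and 59.5 in MC, without overlap. Its log2 difference there was 1.52 ± 0.29 (SE, limma unadjusted p = 8.93e-05, adjusted p = 0.0847), larger than the 1.12 of Ajuba, and it did not pass the test. MC lay below WT for Haus4 (MC minus WT -0.90) but not for Ajuba (-0.01). DMC minus WT was 0.62 for Haus4 and 1.11 for Ajuba.

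Several lists had another direction in DMC against MC than in DC against WT, and the difference between the settings was not tested for a list. The Hippo list had 11 of 33 positive with a median of -0.11, the collagen list 9 of 39 with -0.17 and the interferon-stimulated list 2 of 38 with -0.68. Neutrophil genes had 3 of 9 positive with a median of -1.25. The T and NK cell list had 18 positive of 22 with a median of 0.21, the B and plasma cell list 14 of 14 with 1.17 and the cell cycle list 31 of 35 with 0.25. Clock genes had 12 of 20 positive with a median of 0.26. Over all genes tested, 51.1% were positive in DMC against MC.

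At an unadjusted p under 0.05, 51 genes were higher in both comparisons, which is 4.802% of the 1062 higher in DC and 11.2% of the 454 higher in DMC. Over all genes tested, 3.19% were higher in DMC at that p. Another 36 genes (3.39% of the 1062) were higher in DC and lower in DMC. On the lower side 16 genes were shared, 2.65% of 603 and 4.73% of 338, where 2.38% of all genes were lower in DMC. More genes, 26 (4.31% of the 603), were lower in DC and higher in DMC. The shared higher genes, examples of which were picked after their values were seen, included Pax1, a paired box factor (2.04 in DC against WT, 2.46 in DMC against MC), Cd209a, a lectin of dendritic cells (1.61 and 2.08), Hcar1, the lactate receptor (1.52 and 1.64), and Spock3, a testican (2.07 and 1.19). Pax1 rests on 37 reads in DC, 5 in WT, 72 in DMC and 7 in MC.

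**Figure D5:**
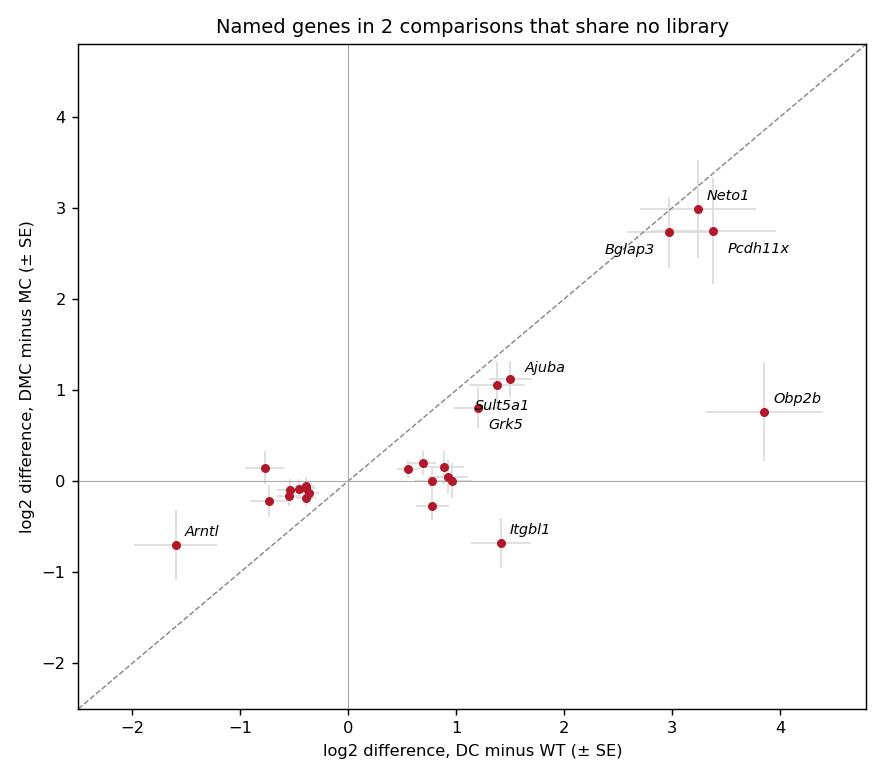
Each point is a named gene, with its log2 difference DC minus WT across and DMC minus MC upward, bars of ± 1 SE, and a dashed line of equality. Bglap3, Neto1, Pcdh11x, Ajuba, Sult5a1 and Grk5 lie close to the line, while Obp2b and Itgbl1 lie far below it.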

How the data were processed

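RNA from whole pancreas of 16 mice (4 groups of 4, independent animals per the series' design text) was made into strand-specific total RNA libraries, per the labels' protocols. Per the submitters' processing notes, STAR 2.6.0b and DESeq2 were used by the authors with the GRCm38 build. No source used here names the counter, the annotation release or the gene filter. The deposited signal is the gene count divided by a size factor for each library. A step per library divides 100% of its values into whole reads (tolerance 0.01 reads), and reads were recovered with it: 13481063 to 23728309 per library, size factors 0.566 to 1.63. Every listed gene had at least 33 reads over all libraries. The floor of 3 reads covers counting error only, while the SD and SE values are drawn from the spread between libraries. No library repeated another (chi-square per degree of freedom between DC pairs or WT pairs 21.0 to 132.6).

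A trended, non-robust limma 3.58.1 model in R 4.3.3 was fitted to log2(normalized count + 1), with a coefficient per genotype. Contrasts were DC minus WT, DMC minus MC and their difference, with Benjamini-Hochberg adjustment and a threshold of 0.05. Alternatives used edgeR 4.0.16, DESeq2 1.42.0, other scalings, filters, weights and subsets of libraries. The limma script was tested on simulated data. Genes were placed with the GENCODE mouse annotation (release M21, GRCm38), which matched 15152 of 15156. Named were Daxx, each called gene, in each direction the 10 genes next by p with a mean of at least 50, no overlap and an established symbol, and up to 3 members of a list by p, while genes said to be picked after their values were seen fall outside this rule. Lists have no test, and 28 lists were used. Members, lists and comparisons were chosen with earlier results of these data known. Bglap, Bglap2 and Obp2a were not analysed here.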

Additional observations from a re-analysis of the deposited data

Results flagged for a closer look

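In groups of 4 libraries, a library is listed here when its distance from the nearest other library takes up most of the range of the group, by Dixon's 95% limit. Chance alone gives this in about 1 in 20 groups, and the 4 cases below come from many groups looked at. Rassf3, which was not called, had 466, 418, 383 and 363 normalized counts in DC and 573, 553, 564 and 671 in WT, with WT replicate 4 (670.9) far from the others. The level of the Daxx, Atrx and H3.3 chaperone list was 0.01, 0.02, -0.05 and 0.02 in DC, where replicate 3 (-0.0501) stood apart. In WT it was -0.07, 0.13, 0.26 and -0.11. The stomach gland level was -1.51, -1.43, -1.59 and -3.27 in DC, replicate 4 (-3.27) being the low library, and -1.68, -2.59, -2.61 and -1.46 in WT. The germline and 2-cell level, which rests on 3 tested genes, was 0.32, -0.48, -0.09 and -0.09 in DC and 0.24, -0.38, -0.33 and -0.45 in WT, where replicate 1 (0.238) was the high library.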

How the results depend on the processing

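Limma called 3 genes as reported, 177 with library quality weights, 1 with the DC and WT libraries alone, 41 without WT replicates 2 and 3, and 11 without those and DC replicate 1 (chosen after seeing the data), and DESeq2 called 281. The cause was not tested. Leaving out 1 library gave 0 to 19 calls, and leaving out MC or DMC libraries was an alternative chosen after seeing the data. The log2 difference of Daxx turned to 0.07 (0.0665) without WT replicates 2 and 3 and to 0.06 (0.0640) without those and DC replicate 1. Those of Bglap3, Ajuba and Obp2b were positive in DC against WT in every alternative. In the fit with a replicate block 3 genes were called, the same 3, with a smallest limma adjusted p of 0.0462, and Bglap3 in DMC against MC was no longer called (limma adjusted p = 0.0957). Libraries with the same number correlated at -0.12, -0.33, 0.35 and 0.14, so same-numbered libraries were not treated as pairs, and 1 of 4 correlated best with its own number. Of 840 list medians recomputed, 20 moved beyond the spread between libraries. Depth limits Neto1, Pcdh11x and Obp2b in DMC and MC, which rest on few reads.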

Other observations

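A few genes outside the comparisons above, chosen after their values were seen, had large differences at modest levels and none was called by limma in DC against WT with all libraries in the fit. Hal, the enzyme that begins histidine breakdown, had 17.8, 4.98, 6.84 and 3.302 normalized counts in DC and 179, 146, 8.97 and 293 in WT, where replicate 3 lay within the DC range (log2 difference -3.58, limma adjusted p = 0.117, and 0.000519 without that library). In DMC against MC it averaged 478 ± 254 in DMC and 415 ± 158 in MC (SD, n = 4 each). Pianp, a neuronal membrane protein, had 76.5, 26.5, 69.5 and 24.2 in DC and 0, 1.81, 19.6 and 0 in WT (limma adjusted p = 0.117), with WT replicate 3 closest to DC. Without that library the limma adjusted p of Pianp was 0.0188.

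A pair of transcription factors of mesenchyme had higher values in DC. Prrx1 had 572, 294, 309 and 201.4 in DC and 166, 130, 131 and 156 in WT, and Hand2 had 57.5, 37.3, 37.6 and 30.8 in DC and 17.7, 17.2, 12.2 and 13.2 in WT (limma adjusted p = 0.115 each, and 0.0392 for Prrx1 without DC replicate 4). Ednra, an endothelin receptor of smooth muscle and fibroblasts, had 92.4, 79.6, 70.6 and 55.0 in DC and 26.5, 28.9, 36.7 and 32.9 in WT. Each is without overlap. MC minus WT was 0.76 for Prrx1, 0.85 for Hand2 and 0.81 for Ednra, and DMC minus WT was 0.64, 0.64 and 0.35. So these genes were on average also higher in MC, without floxed Daxx. In DMC against MC their log2 differences were -0.12, -0.21 and -0.47. The difference between the settings had a limma unadjusted p of 0.00177, 0.00141 and 0.000253, with adjusted p of 0.385, 0.377 and 0.286. None passed.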
